A study of Mus musculus with 2 samples.

Results

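The 10 genes described here encode the syndecans Sdc1, Sdc3 and Sdc4 and 7 adhesion receptors with immunoglobulin-like domains, namely Vcam1, Cadm1, L1cam, Alcam, Pecam1, F11r and Jam3. They were taken by symbol from the 19871 genes that had at least 1 row with a single annotated symbol, keeping for each gene the row with the highest mean of both arrays, and each of the 10 had 1 such row. RNA levels were measured in bone marrow derived macrophages, 1 sample labelled beta-catenin deficient and 1 control, with the age given as 8 weeks for both. Marrow cells of both groups were grown in medium conditioned by L929 cells, a fibroblast line whose secreted macrophage colony-stimulating factor drives macrophage growth, and total RNA of each was hybridised to an Affymetrix 1.0 ST array. The labels do not state the mouse strain, the deleted exons, a Cre driver or how many animals stand behind each sample.

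Syndecans are transmembrane proteoglycans whose extracellular part carries heparan sulfate chains. Through these chains they bind matrix proteins, growth factors and chemokines, and through a short conserved cytoplasmic tail they bind scaffold proteins that link to actin. The immunoglobulin-like receptors join cells to each other by binding a copy of themselves on the next cell, an integrin or another receptor. On macrophages and on the cells they meet, both families take part in attachment, migration across vessel walls and contact with stromal cells.

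Of the 10 genes, Sdc1 and Vcam1 had values at least 1.5-fold above control in the array labelled deficient, Cadm1 and L1cam had values at least 1.5-fold below it, 5 lay within 1.5-fold, and Jam3 was below the brightness floor in both arrays. The floor was a value of 7.28, the median of all values, and a gene counted when the higher of its 2 values reached it. Across all 10658 genes that reached the floor, 7.54% were higher by that fold and 8.81% lower. This balance turned with the scaling. As deposited there were 804 higher and 939 lower genes, against 997 and 701 with centring, 946 and 737 with quantile normalization and 1048 and 644 with loess. The same 4 genes also passed 2-fold, which 2.96% of all genes at the floor did in the higher and 1.59% in the lower direction. Counts of 2 among 9 are too small to be read closely against these shares. The 9 adhesion genes at the floor had a median difference of 0.38 on the log2 scale, against -0.08 for all genes at the floor, and with Jam3 included the median was 0.29. The 0.38 is the value of Pecam1, which reached the floor only in the array labelled deficient. With the floor set on the mean of both values, 8 adhesion genes reached it and their median was 0.30. Each group had 1 array, so the spread between cultures is unknown, no p-value is given, and higher or lower describes these 2 arrays.

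**Figure D1:**
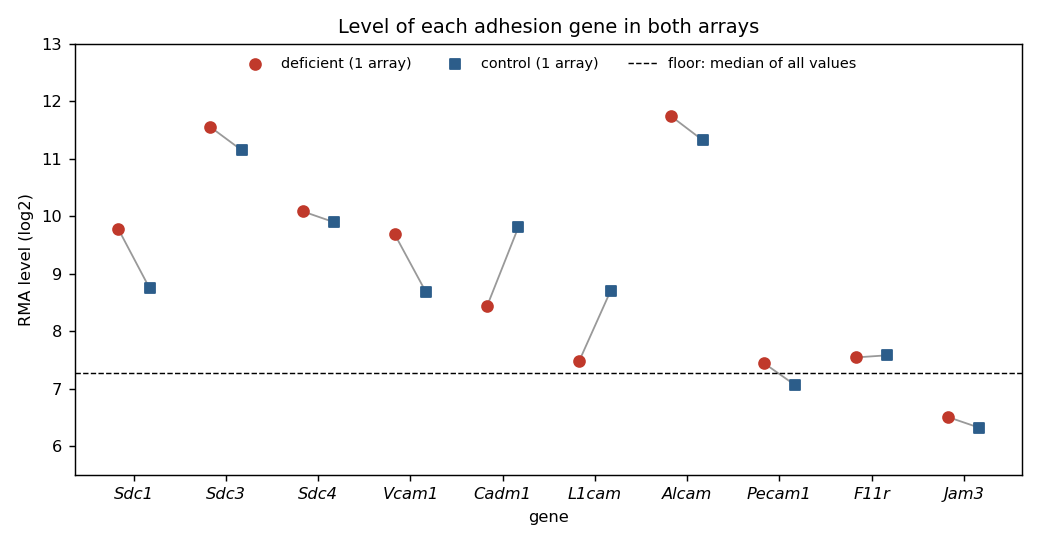
RMA level on the log2 scale (vertical axis) of each of the 10 adhesion genes (horizontal axis) in the array labelled deficient (circles, left of each pair) and in the control array (squares, right), 1 array per group and no error bars; the dashed line is the floor of 7.28. Sdc1 and Vcam1 stand higher in the array labelled deficient, Cadm1 and L1cam stand lower, and both values of Jam3 lie under the line.

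The label and the cell type were checked first. Ctnnb1, the gene of beta-catenin, had a level of 11.44 in the array labelled deficient and 11.29 in the control array, a difference of 0.15, so the transcript was not lower where the label says it is deficient. Probes outside the deleted exons would not register a deletion, and the labels do not state which exons were deleted. Axin2, a feedback inhibitor that Wnt signalling switches on through beta-catenin, had 5.97 in the array labelled deficient against 7.61 in the control array. The first value lay under the floor of 7.28 and the second not far above it, so Axin2 reached the floor by the control array alone. Every direction below rests on the array's label. All 9 macrophage markers examined, among them Csf1r, Adgre1 and Cd68, were above the floor in both arrays, and 8 of the 9 differed by less than 1.5-fold. Markers of some other cells differed more. In the array labelled deficient all 11 fibroblast and stromal markers had higher values, 8 of the 9 at the floor by at least 1.5-fold, and so were all 8 neutrophil and granule markers, 7 of them by at least 1.5-fold. In RNA from a whole culture, fewer cells of a type and less RNA per cell cannot be told apart.

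All 3 syndecans had higher values in the array labelled deficient, by very different amounts. Sdc1, the syndecan of epithelial and plasma cells that macrophages can also carry, had a level of 9.78 in the array labelled deficient against 8.75 in the control array. The difference of 1.03 is 2.05-fold, and 299 of the 10658 genes at the floor (2.81%) had a difference at least as high. Sdc3, which has a long extracellular part and is best known from the nervous system, had 11.55 in the array labelled deficient and 11.15 in the control array, a difference of 0.40 or 1.32-fold. Sdc4, the widely expressed syndecan that gathers at focal adhesions with protein kinase C alpha, had 10.09 in the array labelled deficient and 9.90 in the control array, a difference of 0.19 or 1.14-fold. Sdc3 and Sdc4 therefore did not reach 1.5-fold, and 1341 and 2601 genes at the floor had differences as high as theirs or higher.

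The syndecan that completes the family, Sdc2, is not among the 10 genes but stood in the list of related proteoglycans. It had 9.45 in the array labelled deficient and 8.17 in the control array, and its difference of 1.28 or 2.42-fold was higher than that of Sdc1. Sdc2 is known mainly from fibroblasts and endothelial cells. In the same array the summed level of the 11 fibroblast and stromal markers, added on the linear scale and given as log2, was 13.43 against 12.07 in the control array. Col1a2, a chain of type I collagen, had 11.04 in the array labelled deficient and 9.29 in the control array, and Pdgfra, a growth factor receptor of mesenchymal cells, had 9.04 against 6.92. Sdc1 also marks plasma cells. Of 8 markers of B and plasma cells measured, 6 were below the floor in each array, and 4 of the 8 had higher and 4 lower values in the array labelled deficient. They ran from the transcription factor Prdm1, at the floor and 0.89 higher, and the B cell gene Ms4a1, below the floor and 1.08 higher, down to the joining chain gene Jchain, below the floor with 4.65 in the array labelled deficient and 6.82 in the control array. Their summed level, as log2 of the linear sum, was 10.38 in the array labelled deficient and 10.23 in the control array. The part of stromal cells and of B and plasma cells in the differences of Sdc1 and Sdc2 was not tested.

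The promoter windows of the 3 syndecans and of L1cam are shown because these genes stand at different places in the range of differences, from 1.03 for Sdc1 down to -1.22 for L1cam. RefSeq windows of 300 bases in the GRCm38.p6 build, running from 250 bases before to 50 bases after a gene's start, were found for 6 of the 10 genes. None was matched for Vcam1, Cadm1, Pecam1 or Jam3. Each window is written 5′ to 3′ on the gene's strand, and capitals mark every match to the motifs searched on both strands.
Sdc1 (chr12:8771146-8771445, plus strand): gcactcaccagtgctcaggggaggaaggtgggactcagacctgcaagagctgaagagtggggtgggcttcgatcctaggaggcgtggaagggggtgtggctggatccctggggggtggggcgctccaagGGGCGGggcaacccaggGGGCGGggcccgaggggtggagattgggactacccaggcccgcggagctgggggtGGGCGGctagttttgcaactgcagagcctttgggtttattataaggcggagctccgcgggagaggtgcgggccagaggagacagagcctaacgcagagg
Sdc3 (chr4:130792287-130792586, plus strand): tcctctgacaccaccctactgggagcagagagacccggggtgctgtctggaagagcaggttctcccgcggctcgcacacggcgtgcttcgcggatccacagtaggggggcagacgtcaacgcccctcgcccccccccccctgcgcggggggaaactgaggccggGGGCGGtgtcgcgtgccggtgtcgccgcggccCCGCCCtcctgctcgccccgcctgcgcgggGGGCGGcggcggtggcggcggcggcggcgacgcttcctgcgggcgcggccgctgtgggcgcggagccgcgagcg
Sdc4 (chr2:164443139-164443438, minus strand): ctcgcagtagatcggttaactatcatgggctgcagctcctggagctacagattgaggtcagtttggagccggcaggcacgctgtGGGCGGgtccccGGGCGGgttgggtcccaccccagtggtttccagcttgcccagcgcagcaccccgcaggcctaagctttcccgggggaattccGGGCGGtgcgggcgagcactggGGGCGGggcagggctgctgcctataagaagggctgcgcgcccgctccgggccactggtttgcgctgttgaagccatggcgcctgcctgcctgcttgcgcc
L1cam (chrX:73880741-73881040, minus strand): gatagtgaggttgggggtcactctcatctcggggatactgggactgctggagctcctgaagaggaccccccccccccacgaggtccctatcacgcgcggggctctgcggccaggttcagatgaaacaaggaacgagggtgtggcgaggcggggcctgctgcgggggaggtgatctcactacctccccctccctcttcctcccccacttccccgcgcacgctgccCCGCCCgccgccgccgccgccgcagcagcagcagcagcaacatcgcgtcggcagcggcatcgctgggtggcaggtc

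The motifs were CTTTGA, the core bound by the TCF/LEF partners of beta-catenin, the GC box GGGCGG bound by Sp-family factors, and the AP-1 site TGANTCA. The letters of the GC box were found at 3 places in the Sdc1 window, 3 in that of Sdc3, 4 in that of Sdc4 and 1 in the L1cam window printed. L1cam had a further, overlapping window, which held 2. The TCF/LEF core was in 0 of the 7 windows of the 6 genes, and the AP-1 letters were in 1 window, that of F11r. No match of one motif overlapped a match of another in these windows. Across all 32851 RefSeq windows, 35.7% held a GC box, 16.0% the TCF/LEF core and 7.81% an AP-1 match. The windows were rich in G and C, at 66.3% for Sdc1, 77.7% for Sdc3, 67.7% for Sdc4 and 69.3% for L1cam, against a median of 52.7% over all windows. The GC box was thus present both in genes that were higher and in L1cam, which was lower. These matches describe letters in a window and are not measured binding sites.

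The 7 immunoglobulin-like receptors were split. Among the 6 at the floor, Vcam1, Alcam and Pecam1 had higher values in the array labelled deficient and Cadm1, L1cam and F11r had lower ones, F11r by an amount whose sign turned under other scalings. Their differences spanned 2.39 on the log2 scale, and those of the 3 syndecans spanned 0.84. Vcam1, the receptor on activated endothelium and on marrow stroma and macrophages that holds cells by integrin alpha 4, had a level of 9.68 in the array labelled deficient against 8.67 in the control array. The difference of 1.01 is 2.01-fold, close to that of Sdc1, and 312 genes at the floor (2.93%) had a difference at least as high. Of the 9 endothelial markers, which Vcam1 can accompany, 7 had higher and 2 lower values in the array labelled deficient. Of the 6 at the floor, 1 passed 1.5-fold upward and 1 downward. Emcn had 7.74 in the array labelled deficient and 5.74 in the control array, and Flt1 had 6.62 against 7.29 in the control array. Below the floor were 4 in each array, not all the same genes. The summed level of the 9, as log2 of the linear sum, was 11.11 in the array labelled deficient and 10.83 in the control array. Marrow stromal cells carry Vcam1 too, and the stromal markers are given above with Sdc2. Their part in the difference of Vcam1 was not tested.

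Cadm1, a receptor that binds itself or Crtam and links to actin through FERM-domain proteins of the membrane skeleton, had the lowest difference of the 10. Its level was 8.43 in the array labelled deficient and 9.81 in the control array, a difference of -1.38 or 2.60-fold. It ranked 40th from the lowest among the 10658 genes at the floor. In mouse, Cadm1 also marks the cross-presenting dendritic cells. Their markers Xcr1 (5.80 in the array labelled deficient, 6.15 in the control array) and Clec9a (5.01 in the array labelled deficient, 5.91 in the control array) were below the floor in both. Of all 9 dendritic cell markers, 7 were below the floor in each array, and 7 had lower values in the array labelled deficient, as Cadm1 did (the sign of Zbtb46 turned under quantile normalization and loess). Only 3 of the 9 reached the floor, 2 of them past 1.5-fold upward and 1 downward. The lower one was the chemokine receptor Ccr7, with 7.23 in the array labelled deficient and 7.85 in the control array. The higher ones were Itgax and Kmo, and Kmo had 7.52 in the array labelled deficient and 6.23 in the control array. The summed level of the 9, as log2 of the linear sum, was 11.57 in the array labelled deficient against 10.71 in the control array. Itgax, an integrin chain in that list that many macrophages carry too, had 11.14 in the array labelled deficient and 9.61 in the control array. Without Itgax, a variant chosen after seeing the data, the sum was 9.62 in the array labelled deficient and 9.81 in the control array. The part of dendritic cells in the difference of Cadm1 was not tested.

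L1cam, first known for axon growth and found on some leukocytes, binds itself and integrins. It had 7.48 in the array labelled deficient, just above the floor, and 8.70 in the control array. The difference of -1.22 is 2.33-fold, and 73 genes at the floor (0.685%) had a difference as low or lower. One of its values thus lay close to the floor, and under the stricter floor at the 75th percentile of all values L1cam was no longer counted.

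The remaining receptors differed little. Alcam, which binds itself and the T cell receptor Cd6, had 11.74 in the array labelled deficient and 11.32 in the control array, a difference of 0.41 or 1.33-fold. Pecam1, a self-binding receptor of endothelium, platelets and myeloid cells that inhibits through tyrosine phosphatases, had 7.45 in the array labelled deficient and 7.06 in the control array. Its difference was 0.38, and it passed the floor by the value of the array labelled deficient alone. Platelet and megakaryocyte markers, which go with Pecam1 and F11r, had higher values there in 5 of 5 measured, with differences of 0.01 for Gp5 at the low end and 2.51 for Ppbp at the high end. Their summed level, as log2 of the linear sum, was 13.59 there and 12.35 in the control array, and their part in the difference of Pecam1 was not tested.

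Both junctional adhesion molecules lay near or under the floor. F11r, which binds itself at tight junctions and integrin alpha L beta 2 on leukocytes, had 7.54 in the array labelled deficient and 7.58 in the control array. Its difference of -0.04 became positive under centring, quantile normalization and loess, so it has no settled direction. Jam3, which binds integrin alpha M beta 2, had 6.50 in the array labelled deficient and 6.32 in the control array. Both values were under the floor, so its difference of 0.19 was not counted.

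**Figure D2:**
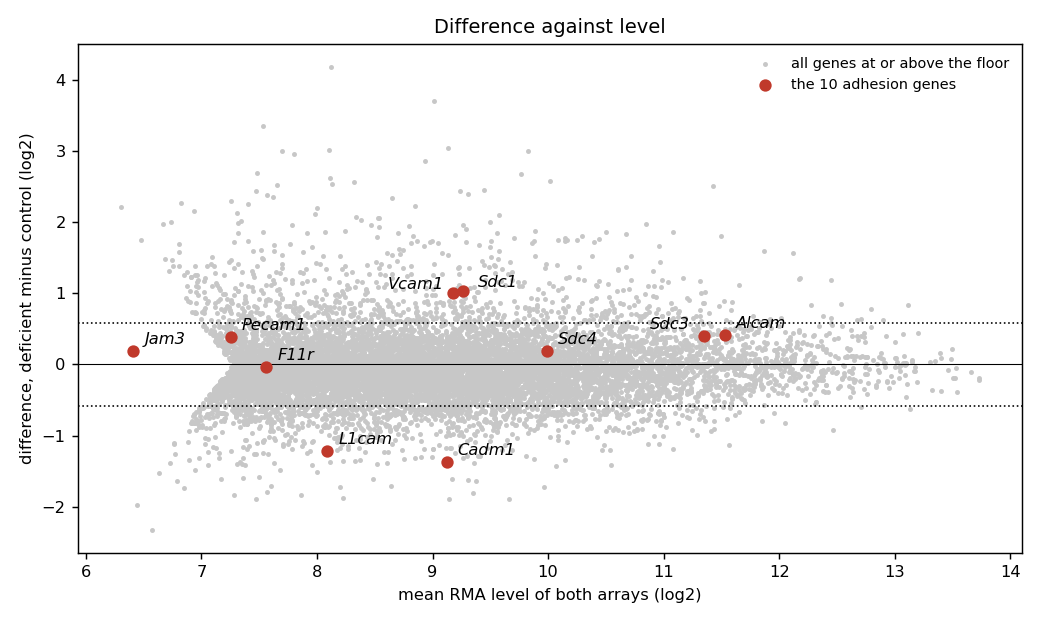
Difference, deficient minus control on the log2 scale (vertical axis), against the mean RMA level of both arrays on the log2 scale (horizontal axis), for the 10658 genes at the floor (grey) and the 10 adhesion genes (red); dotted lines mark 1.5-fold. Sdc1 and Vcam1 lie above the upper line at nearly the same place, Cadm1 and L1cam lie below the lower line, and the other 6 lie between.

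The enzymes that build and trim the heparan sulfate chains of syndecans were mostly level. Of 27 listed, 26 were measured and 18 reached the floor, with 2 past 1.5-fold in the higher direction, 0 in the lower and 16 between. The enzyme not measured was Ndst1. Of its relatives, Ndst3 and Ndst4 were below the floor in both arrays and Ndst2 reached it, with a difference of 0.19. The shares over all genes at the floor, for this list and those below, were 7.54% higher and 8.81% lower. The median of the enzymes was -0.08, close to the -0.08 of all genes at the floor, and it turned to a positive value only under loess. Sulf1, an extracellular enzyme that removes sulfate groups from finished chains, was highest, with 8.44 in the array labelled deficient against 7.29 in the control array, a difference of 1.15. The chain polymerase Ext2 followed, with 9.89 against 9.22 in the control array (0.67). Its partner polymerase Ext1 had a difference of 0.43 and was picked after its value was seen. At the other end stood Sulf2, the close relative of Sulf1, with 9.86 in the array labelled deficient and 10.41 in the control array (-0.54), and the sulfotransferase Hs3st2 (-0.32). The pair of sulfatases thus differed in sign, but Sulf2 lay within 1.5-fold and the control value of Sulf1 lay close to the floor.

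Several other proteoglycans had higher values in the array labelled deficient. Of 13 measured, 10 reached the floor, and their median was 0.63, or 0.29 without a floor, where the 3 dimmer genes count too. Over all genes at the floor 7.54% were higher and 8.81% lower. Of the 10 proteoglycans, 5 passed 1.5-fold upward and 0 downward. Besides Sdc2 they were Tgfbr3, a co-receptor for TGF-beta that carries heparan sulfate (8.94 in the array labelled deficient, 7.76 in the control array, difference 1.18), the lipid-anchored glypicans Gpc1 (0.94) and Gpc4 (0.73), and the basement membrane proteoglycan perlecan, Hspg2 (0.89). Gpc1, Gpc4 and Hspg2 fall outside the naming rule and were picked after their values were seen. The lowest were Col18a1, a collagen that carries heparan sulfate (-0.58), and Cd44, the hyaluronan receptor of leukocytes (-0.19). The stromal markers given above were higher in the same array, and their part in this list was not tested.

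Proteins that act on syndecans inside the cell were nearly level apart from one. Of 10 cytoplasmic partners at the floor, 1 was past 1.5-fold in the higher direction and 0 in the lower, and the median was 0.03, a value that stayed positive under centring, quantile normalization and loess but was -0.12 with the floor at the 75th percentile and -0.0019 without a floor. Cttn, the actin-binding cortactin, had 9.73 in the array labelled deficient and 8.00 in the control array, a difference of 1.73. The stromal markers given above were higher in the same array, and their part in the difference of Cttn was not tested. The kinase Src followed at 0.32, while the Rac exchange factor Tiam1 (-0.52) and the membrane-actin linker ezrin, Ezr (-0.30), were lowest. Sdcbp, or syntenin, which holds the syndecan tail by its PDZ domains, had 12.55 in both arrays (picked after its values were seen).

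Proteases that cut syndecans from the surface, and their inhibitors, were level or higher. Of 6 at the floor, 3 passed 1.5-fold upward and 0 downward, and the median was 0.55, or 0.27 without a floor. The gelatinase Mmp9 had 11.23 in the array labelled deficient against 10.17 in the control array (1.07), and the inhibitor Timp1 had 11.87 against 10.85 in the control array (1.01). Another inhibitor, Timp3, was 0.84 higher and falls outside the naming rule. The membrane sheddases Adam10 (-0.33) and Adam17 (0.15) were within 1.5-fold. Neutrophils store Mmp9, and the summed level of the 8 neutrophil and granule markers, as log2 of the linear sum, was 13.20 in the array labelled deficient and 11.84 in the control array. Their part in the difference of Mmp9 was not tested, nor was that of stromal cells in the differences of Timp1 and Timp3.

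**Figure D3:**
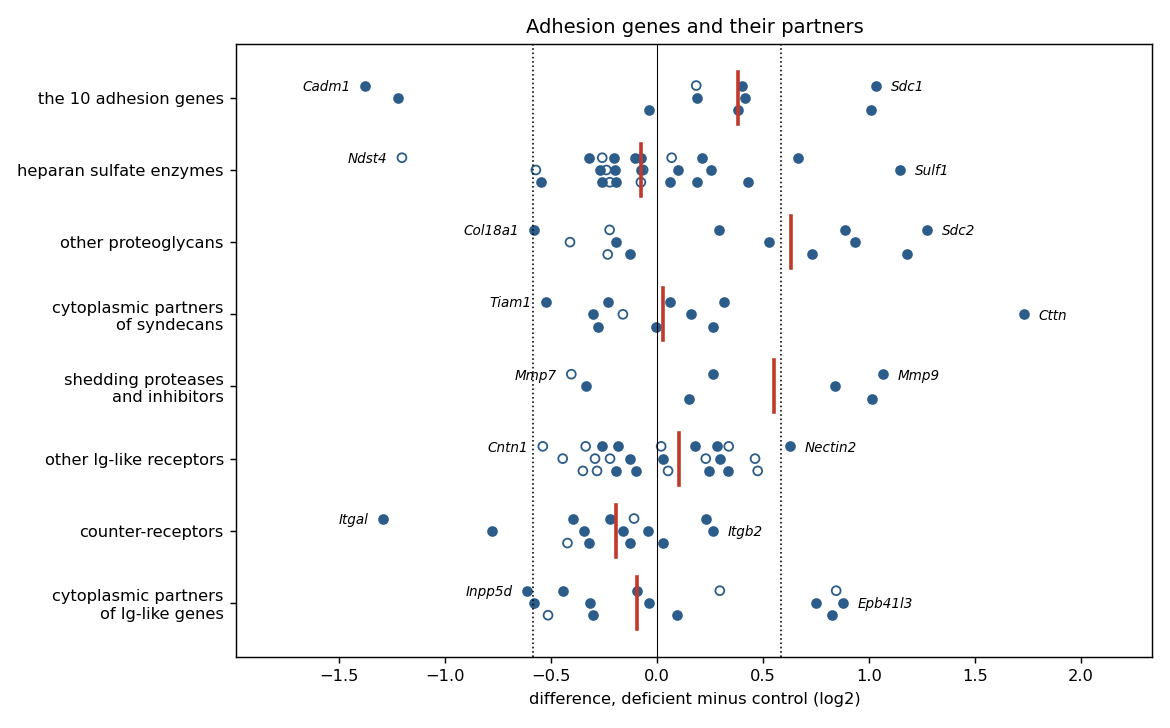
Difference, deficient minus control on the log2 scale (horizontal axis), of each gene in the 10 adhesion genes and in 7 lists of partners and relatives (rows), with filled points for genes at the floor, open points for genes below it, a red bar at the median of the filled points and dotted lines at 1.5-fold; the lowest and highest gene of each row is named. Of the 10 adhesion genes, 6 lie between the dotted lines. These genes, the cytoplasmic partners of immunoglobulin-like genes and the heparan sulfate enzymes have points beyond each line, for the enzymes only an open one (Ndst4) on the lower side.

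Most other immunoglobulin-like adhesion receptors were dim or nearly level between the arrays. Of 25 measured, 12 reached the floor, with 1 past 1.5-fold upward, 0 downward and a median of 0.10, which was -0.099 with the floor at the 75th percentile, where 0 passed upward, and -0.036 with the floor on the mean. The nectin Nectin2 had 8.00 in the array labelled deficient and 7.37 in the control array (0.63), followed by the laminin receptor Bcam (0.34). Sirpa, the inhibitory receptor for Cd47, was lowest at -0.26, followed by Ceacam1 at -0.19, and both have close gene relatives whose probes may share signal. The relatives of L1cam and Cadm1, namely Chl1, Nrcam and Nfasc and Cadm3 and Cadm4, were below the floor in both arrays, so they could not be set beside the differences of L1cam and Cadm1.

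Most integrin chains and other counter-receptors, which bind these receptors from the opposite cell, lay within 1.5-fold. Of 12 counter-receptors at the floor, 0 passed 1.5-fold upward and 2 passed it downward. Over all genes at the floor 7.54% were higher and 8.81% lower, and counts this small cannot be read closely against these shares. The median of the counter-receptors was -0.19, against -0.08 for all genes at the floor. Itgal, the alpha L chain that binds F11r, had 8.65 in the array labelled deficient and 9.94 in the control array (-1.29). Itga9, a further receptor chain for Vcam1, had 8.51 in the array labelled deficient and 9.29 in the control array (-0.78). The main receptor of Vcam1, Itga4 with Itgb1, lay within 1.5-fold at -0.34 and -0.22, both picked after their values were seen. The 2 highest were the leukocyte chains Itgb2 (0.26) and Itgb7 (0.23). Itgb7 also pairs with Itga4 to bind Vcam1, so the chains that bind Vcam1 did not all differ in the same direction.

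Cytoplasmic partners of the immunoglobulin-like receptors were called in both directions as deposited, and the counts depended on the setting. Of 11 at the floor, 3 passed 1.5-fold upward and 1 downward, and the median was -0.09. Over all genes at the floor the shares were 7.54% higher and 8.81% lower. Under centring, quantile normalization and loess 3 still passed upward, while 0 passed downward under centring and loess and 2 under quantile normalization. With the floor at the 75th percentile 0 passed upward. Epb41l3, a FERM-domain protein that binds the tail of Cadm1, had 9.06 in the array labelled deficient and 8.18 in the control array, a difference of 0.88 while Cadm1 itself differed by -1.38. The polarity protein Pard3 (0.83) and the tight junction scaffold Tjp1 (0.75, outside the naming rule), which bind junctional adhesion molecules, were both under the floor in the control array and above it in the array labelled deficient. Inpp5d, the phosphatase SHIP1 that acts downstream of inhibitory receptors, had 11.13 in the array labelled deficient and 11.74 in the control array (-0.61), and moesin, Msn, an actin linker, was next at -0.58. The phosphatases bound by Pecam1, Ptpn6 (-0.04) and Ptpn11 (-0.09), were near 0, and the sign of Ptpn6 turned under centring and loess. Both were picked after their values were seen.

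**Figure D4:**
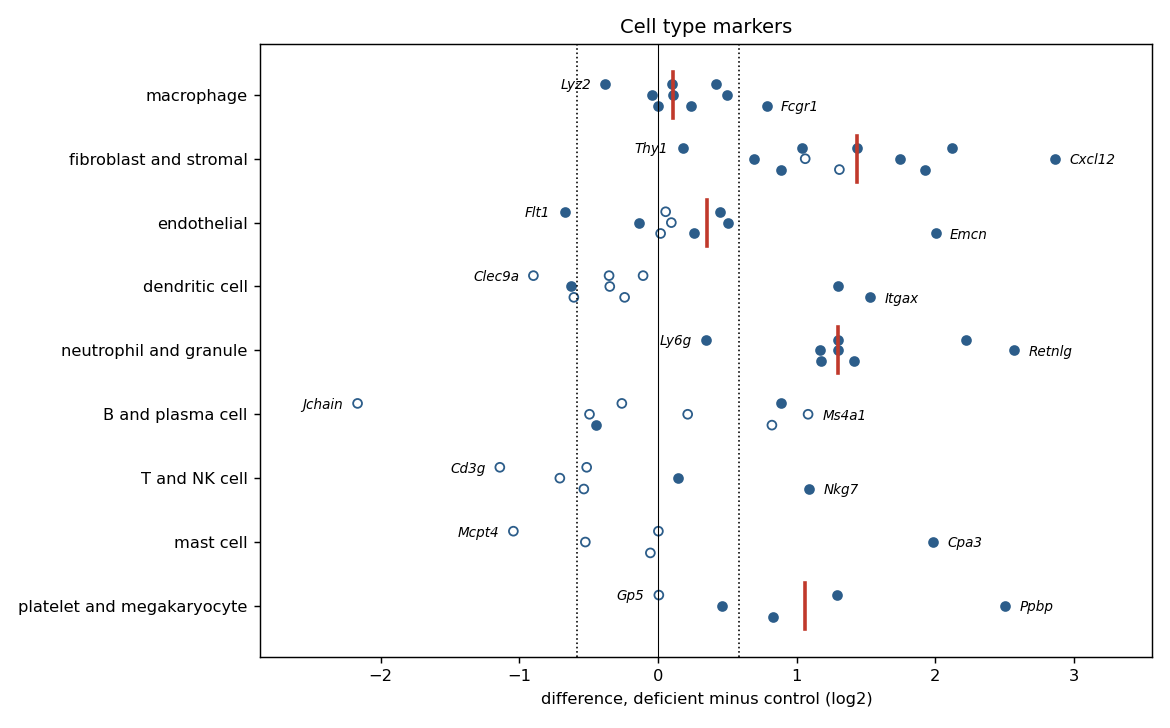
Difference, deficient minus control on the log2 scale (horizontal axis), of the markers of 9 cell types (rows), with filled points for genes at the floor, open points for genes below it, a red bar at the median of the filled points where there are more than 3, and dotted lines at 1.5-fold. Of the 9 macrophage markers, 8 lie between the dotted lines and Fcgr1 lies beyond the upper one, and every fibroblast and stromal marker and every neutrophil and granule marker lies above 0.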

How the data were processed

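Each array contributed a log2 column to the deposited table, with a row per transcript cluster, made by the authors with RMA per the submitters' processing notes. RMA usually corrects background, equalises the arrays' distributions and joins a cluster's probes into 1 value. The medians over the deposited rows were 7.24 in the array labelled deficient and 7.31 in the control array, so the deposited columns were not fully equalised. The version, settings and row filter of RMA are not stated, nor is the genome build of the array's annotation. The log2 scale was inferred from the range of 2.12 to 14.11. The control column carried up to 10 digits and the other up to 6, so a single run for both is not certain. Of 25917 rows, 21632 had 1 symbol in GEO's platform annotation, 1560 several and 2725 none. Entrez IDs of 21537 rows were found in RefSeq GRCm38.p6, and 0 symbols changed.

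The difference was the array labelled deficient minus control, with no test, since 1 array per group leaves no residual degrees of freedom and the number of arrays limits the precision. Of several rows of a gene, the brightest was kept. The named genes were all 10 members, Ctnnb1, Axin2 and the 2 highest and 2 lowest of each partner list at the floor. The members and lists were chosen with earlier results of these data known. Some listed genes were not analysed here. Python 3.11.15, pandas 2.3.3 and statsmodels 0.14.6 (loess span 0.3) were used. The code for the calls was run on simulated data with planted differences and a noise level that was set, not taken from these arrays. That run checks the code and cannot tell how reliable the calls in these 2 arrays are. Alternatives were a floor at the 75th percentile, on the mean or absent, centring, quantile normalization, loess, the mean of a gene's rows and a 2-fold call.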

Additional observations from a re-analysis of the deposited data

How the results depend on the processing

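Scaling moved the median difference of all genes by 0.07 (centring), 0.15 (quantile normalization) and 0.17 (loess) on the log2 scale, and differences and medians were taken to have moved when they shifted by more than 0.1, counts when they changed by more than 1.5 times. The calls of Sdc1, Vcam1, Cadm1 and L1cam kept their direction and stayed past 1.5-fold in each of those scalings, and also past 2-fold. By these rules 105 of 122 alternative values had not moved. Part of this tally was fixed in advance. Centring shifts the difference of every gene by the same 0.07, which is less than 0.1. Each of the 10 adhesion genes had 1 row, so the mean of a gene's rows returned the same values for them. Loess gave -1.11 for L1cam, 0.51 for Pecam1, 0.077 for F11r and 0.38 for Jam3, and quantile normalization gave 0.37 for Jam3. The floor at the 75th percentile left 1 lower member, because L1cam was too dim. It moved list medians to 0.81 (other proteoglycans), -0.12 (syndecan cytoplasmic partners), -0.099 (other immunoglobulin-like receptors), -0.32 (counter-receptors) and -0.32 (cytoplasmic partners of the immunoglobulin-like receptors). The floor on the mean gave -0.036 for the other immunoglobulin-like receptors and -0.20 for the cytoplasmic partners of the immunoglobulin-like receptors. Without a floor the medians were 0.29 for other proteoglycans and 0.27 for shedding proteases and inhibitors. In these cases the set of genes tested differed by construction. At 2-fold, 315 of all genes were higher and 169 lower, against 804 and 939 at 1.5-fold. No paired analysis was possible because each group had 1 array. Signal over background limits Jam3, Pecam1, F11r and L1cam, which had values below or near the floor.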
